A study of Mus musculus with 8 samples.

Results

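The Hedgehog pathway was followed through 9 genes in neural stem and progenitor cells (NSPCs) of the postnatal mouse cortex, with and without inducible deletion of Ash2l, which encodes a shared subunit of the enzymes that place methyl groups on lysine 4 of histone H3. The 9 genes were Ptch1, Hhip, Boc, Cdon, Smo, Sufu, Gli1, Gli2 and Gli3. They were found by gene symbol among the 55385 genes of the deposited table, and all 9 passed the filter on low values, which left 16413 genes for the test. The iKO group came from Nestin-CreERT2; Ash2l f/f; tdTomato mice and the WT group from Nestin-CreERT2; tdTomato mice, so both groups carried the inducible Cre and the reporter and only iKO carried the floxed Ash2l alleles. Cells were sorted from dissociated cortex at postnatal day 7, with 4 libraries in each group. Deletion can be expected only in cells where the Nestin promoter drove the recombinase at induction, and in their descendants. No source used here states the induction schedule or the sorting gate.

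Hedgehog ligands bind PTCH1, which otherwise keeps the transmembrane protein SMO inactive, and binding is helped by the co-receptors BOC, CDON and GAS1. Active SMO gathers in the primary cilium and releases GLI proteins from SUFU, so that GLI2 acts as an activator and less GLI3 is cut to its repressor form. GLI1, PTCH1 and HHIP are themselves products of target genes, and their mRNAs are the usual readouts of the pathway. In the postnatal forebrain, Hedgehog signals maintain stem cells of the ventricular-subventricular zone.

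Values are TPM, an abundance per transcript scaled by the authors for transcript length and library total, so that levels of different genes can be set side by side. TPM keeps no read depth, and the depth of each library is unknown. Each library had 16089 to 16616 genes at 1 TPM or more. Ash2l itself had 7.54, 6.11, 7.69 and 7.18 TPM in iKO libraries 1 to 4, against 18.1, 16.1, 19.2 and 17.2 TPM in WT libraries 1 to 4 (log2 fold change -1.20, SE 0.0797, adjusted p = 3.82e-06). Every iKO library thus still held Ash2l transcript. Stem cell and radial glia markers, 14 genes, had a summed level of 4149 to 4238 TPM in iKO, against 4885 to 4988 TPM in WT. Slc1a3, which fell, held a large part of that sum. The tested genes of the list went in both directions, with a median log2 fold change of -0.02. Markers of astrocytes, endothelium, microglia and other types were present too, so the marker levels alone do not establish how pure the sorted NSPCs were. Whether each library came from its own animal is not stated, and the variation between libraries on which every p rests may be technical. Y-linked transcripts also separated the groups, with a summed level of 53.9 to 73.4 TPM in iKO, against 135 to 163 TPM in WT for 4 genes, so genotype and the mix of sexes cannot be told apart.

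Promoter sequence is shown first, because the deleted gene acts on a promoter mark that usually accompanies CpG-rich DNA. The listed windows of the members differ in CpG content. RefSeq promoter windows of 300 bases (250 before and 50 after the start, build GRCm38.p6) were found for 7 of 9 members. Gli1 and Boc had no entry. Only the listed window of each member was looked at, and other starts of the same gene were not. Cdon, for example, has 6 transcripts of 408 to 7503 nt in the GENCODE M21 annotation, and its listed window may not be that of its main start. The build behind the deposited values is not given, so these coordinates belong to the RefSeq table alone. The 250 bases before the start are given 5′ to 3′, with CG pairs in capitals. They are those of the most CpG-rich window, Ptch1, of Gli3 and Hhip, which came next, and of the poorest window, Cdon.
Ptch1 (chr13:63565736-63565985, minus strand): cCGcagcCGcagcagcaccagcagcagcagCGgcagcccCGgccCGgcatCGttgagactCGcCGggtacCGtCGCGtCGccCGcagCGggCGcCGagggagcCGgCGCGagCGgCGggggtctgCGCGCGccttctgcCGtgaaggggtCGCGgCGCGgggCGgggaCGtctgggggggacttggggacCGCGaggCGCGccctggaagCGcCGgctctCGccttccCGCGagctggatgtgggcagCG
Gli3 (chr13:15463473-15463722, plus strand): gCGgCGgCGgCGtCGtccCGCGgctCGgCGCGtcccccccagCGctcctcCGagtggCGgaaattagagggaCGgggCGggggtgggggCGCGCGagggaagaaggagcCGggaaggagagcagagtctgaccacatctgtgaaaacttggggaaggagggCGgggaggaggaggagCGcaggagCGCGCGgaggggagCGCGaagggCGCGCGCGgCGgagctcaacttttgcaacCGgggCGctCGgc
Hhip (chr8:80058009-80058258, minus strand): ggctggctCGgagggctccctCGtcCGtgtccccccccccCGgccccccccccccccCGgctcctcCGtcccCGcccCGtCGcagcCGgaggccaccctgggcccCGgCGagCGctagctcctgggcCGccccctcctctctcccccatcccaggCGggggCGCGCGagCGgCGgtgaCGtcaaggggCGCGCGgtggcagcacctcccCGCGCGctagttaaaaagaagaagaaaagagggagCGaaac
Cdon (chr9:35451826-35452075, plus strand): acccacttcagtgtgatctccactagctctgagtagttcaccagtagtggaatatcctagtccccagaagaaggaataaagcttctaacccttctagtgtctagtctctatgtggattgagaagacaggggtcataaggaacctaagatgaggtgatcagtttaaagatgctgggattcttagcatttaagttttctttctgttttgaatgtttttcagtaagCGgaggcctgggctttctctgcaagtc
The whole windows held 47 CG pairs in Ptch1, 39 in Gli3, 30 in Hhip, 28 in Gli2, 17 in Smo, 12 in Sufu and 3 in Cdon, against a median of 7 over 32851 promoters of that length. The GLI binding motif GACCACCCA, searched on both strands (TGGGTGGTC), was in none of the 7 windows and in 0.253% of all promoters.

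All 9 members had a lower mean in iKO than in WT, and 8 fell by limma on log2(TPM + 1) with Benjamini-Hochberg adjustment over all 16413 genes. The ninth, Cdon, did not pass. With a score of sex-linked transcripts as a covariate, which separates the groups, 0 of 9 members and not even Ash2l passed (Ash2l log2 fold change -1.07, adjusted p = 0.142). Mean levels in iKO stood between 56.8% (Gli1) and 87.6% (Sufu) of the WT mean. Of all tested genes, 31.9% were called lower and 52.6% were called in either direction. Every iKO library lay below every WT library for 6 members, Gli1, Gli2, Gli3, Hhip, Boc and Smo, which was the case for 29.9% of all tested genes (49.2% with either group above). The median log2 fold change was -0.38 over the members and -0.06 over all tested genes. In such bulk libraries, fewer cells of a type and less RNA per cell cannot be told apart.

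**Figure D1:**
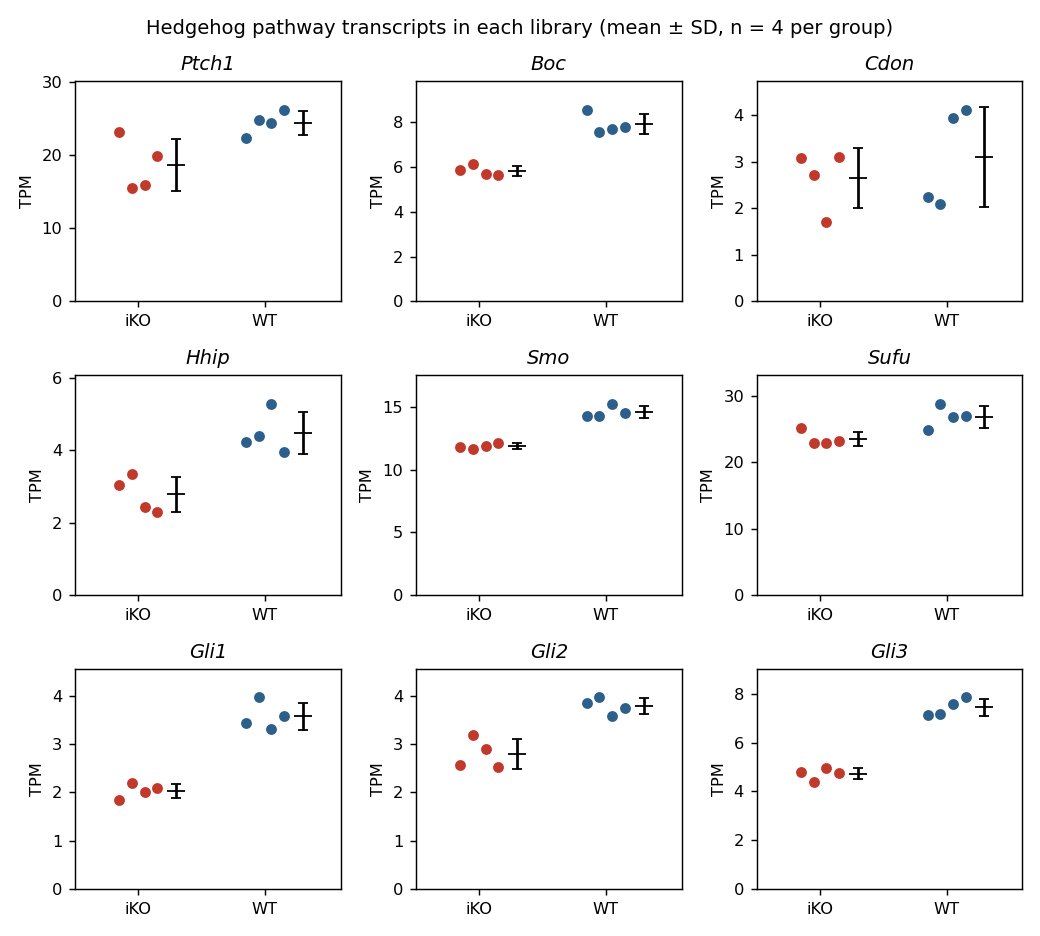
TPM of each member in each library (points, iKO left of WT) with the group mean and SD (bar, n = 4); every vertical axis starts at 0. Points of the 2 groups are apart for Boc, Hhip, Smo, Gli1, Gli2 and Gli3 and overlap for Ptch1, Cdon and Sufu.

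Of the members, Gli1 and Gli3 fell most on the log2(TPM + 1) scale. Second place depends on that scale: Hhip stood at 62.2% of its WT mean and Gli3 at 63.5%. With a pseudocount of 0.1 the log2 fold changes were -0.67 for Hhip and -0.65 for Gli3. Gli1 (ENSMUSG00000025407.7), the activator whose transcription depends on the pathway, had 1.84, 2.19, 2.001 and 2.09 TPM in iKO libraries 1 to 4, against 3.44, 3.97, 3.31 and 3.59 TPM in WT libraries 1 to 4. The highest iKO value was well below the lowest WT value. Gli1 fell by 0.59 on the log2(TPM + 1) scale (SE 0.0790, 95% interval -0.77 to -0.41, adjusted p = 0.000266). That scale understates changes of genes this low, and with a pseudocount of 0.1 the log2 fold change was -0.79. The authors' deposited table gave -0.73 for Gli1, from a mean normalized signal of 98.4.

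Gli3 (ENSMUSG00000021318.15), the main source of GLI repressor, had 4.79, 4.40, 4.97 and 4.73 TPM in iKO libraries 1 to 4, against 7.15, 7.17, 7.58 and 7.85 TPM in WT libraries 1 to 4. The groups were far apart relative to their spread, and Gli3 fell by 0.56 on the log2 scale (SE 0.0598, adjusted p = 6.7e-05). Gli2 (ENSMUSG00000048402.14), the main primary activator, had 2.56, 3.19, 2.89 and 2.52 TPM in iKO libraries 1 to 4, against 3.85, 3.96, 3.58 and 3.74 TPM in WT libraries 1 to 4. The groups did not overlap (log2 fold change -0.34, SE 0.0802, adjusted p = 0.00672), but Gli2 did not pass after quantile normalization (-0.21, adjusted p = 0.0549). The authors' deposited table gave -0.45 for Gli3 and -0.53 for Gli2, so the larger change was that of Gli3 in TPM and that of Gli2 in that table.

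Receptors that hold the ligand also fell, and with more spread. Ptch1 (ENSMUSG00000021466.12), the receptor and a target gene, had 23.2, 15.6, 16.0 and 19.9 TPM in iKO libraries 1 to 4, against 22.3, 24.8, 24.4 and 26.2 TPM in WT libraries 1 to 4. One iKO library lay above the lowest WT library, and the coefficient of variation was 19.2% in iKO and 6.57% in WT. Ptch1 fell by 0.39 on the log2 scale (SE 0.118, adjusted p = 0.0219). Ptch1 no longer passed when iKO replicate 2 (adjusted p = 0.0545), iKO replicate 3 (0.0575) or WT replicate 4 (0.0565) was left out, or when a trend on length and GC was taken out (0.0990). The authors' deposited table gave -0.26 with an adjusted p of 1.67e-08 for Ptch1, from a mean normalized signal of 1030.

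Hhip (ENSMUSG00000064325.4), a surface protein that sequesters ligand and a target gene, had 3.03, 3.34, 2.44 and 2.30 TPM in iKO libraries 1 to 4, against 4.24, 4.40, 5.29 and 3.94 TPM in WT libraries 1 to 4. All iKO values lay below all WT values (log2 fold change -0.54, SE 0.115, adjusted p = 0.00403). In the authors' deposited table the change of Hhip was smaller, at -0.31.

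Both immunoglobulin-like co-receptors were lower on average but differed in how clearly they could be read. Boc (ENSMUSG00000022687.12) had 5.88, 6.13, 5.68 and 5.62 TPM in iKO libraries 1 to 4, against 8.55, 7.57, 7.71 and 7.76 TPM in WT libraries 1 to 4. Its groups were apart, at -0.38 on the log2 scale (SE 0.0585, adjusted p = 0.000621), and the authors' deposited table also gave -0.38. Cdon (ENSMUSG00000038119.15) had 3.07, 2.72, 1.71 and 3.10 TPM in iKO libraries 1 to 4, against 2.24, 2.08, 3.93 and 4.11 TPM in WT libraries 1 to 4. WT values formed a low pair and a high pair, the iKO range took in the low pair, and Cdon did not pass (log2 fold change -0.14, 95% interval -0.62 to 0.33, adjusted p = 0.588). The authors' deposited table called Cdon lower (-0.36, adjusted p = 0.00615). Boc has 1 transcript in the GENCODE M21 annotation and Cdon has 6, of 408 to 7503 nt; the part of isoform assignment in the spread of Cdon was not tested.

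The transducer and the inhibitor changed least among the called members. Smo (ENSMUSG00000001761.7), the membrane transducer, had 11.8, 11.7, 11.9 and 12.2 TPM in iKO libraries 1 to 4, against 14.3, 14.3, 15.3 and 14.5 TPM in WT libraries 1 to 4. Its fall was small but wide of the spread, with coefficients of variation of 1.78% in iKO and 3.26% in WT (log2 fold change -0.27, SE 0.0428, adjusted p = 0.000677). Sufu (ENSMUSG00000025231.17), which restrains GLI proteins, had 25.1, 22.9, 23.0 and 23.1 TPM in iKO libraries 1 to 4, against 24.8, 28.8, 26.8 and 27.0 TPM in WT libraries 1 to 4. One iKO value exceeded the lowest WT value, and the log2 fold change was -0.18 (SE 0.0532, adjusted p = 0.0182). The call on Sufu did not hold with quantile normalization (-0.12, adjusted p = 0.0647), trimmed mean factors (-0.11, 0.0833) or the trend on length and GC taken out (-0.0881, 0.152), nor in the authors' deposited table (-0.0826, 0.130).

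**Figure D2:**
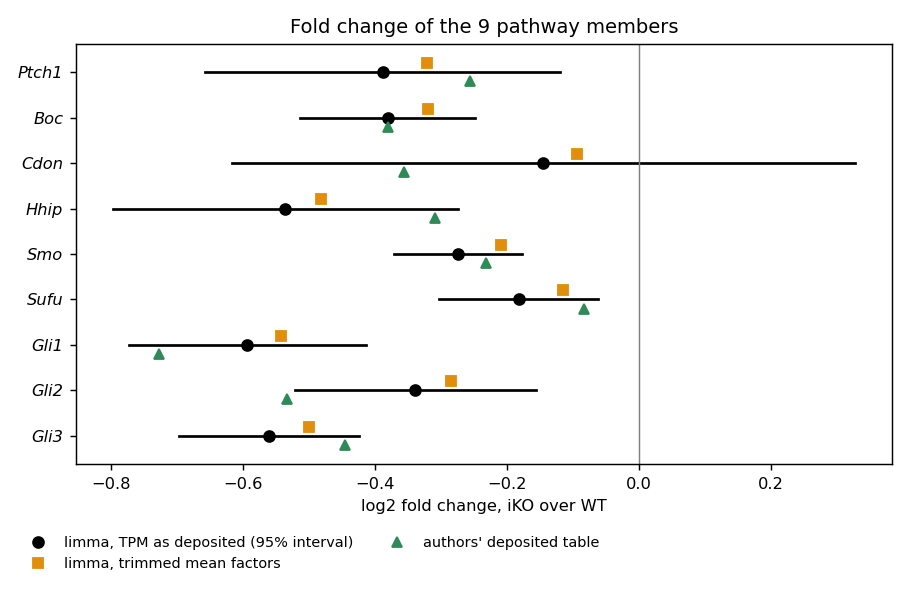
Log2 fold change of each member, iKO over WT, by limma on log2(TPM + 1) with its 95% interval (black), by the same test with trimmed mean factors (orange squares) and in the authors' deposited table (green triangles). All points lie below 0; the interval of Cdon includes 0, and the deepest fall in the authors' deposited table is that of Gli1 at -0.73.

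Trimmed mean factors brought the median of all tested genes to 0.00 and left all 9 members below 0, from -0.09 (Cdon) to -0.54 (Gli1), with 7 called. Quantile normalization left 6 called. The authors' deposited table called all members but Sufu lower, 8 in all, against 16.7% of its 29420 genes with a p-value (33.9% in either direction). Those genes include many below the filter that left 16413 genes for limma, while all 9 members passed it, so the shares are not over a like set.

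By level, Sufu and Ptch1 led in both groups and their ranges overlapped, followed by Smo, which stood apart from its neighbours in either group. In iKO the order continued with Boc at 5.83 TPM, Gli3 at 4.72, Gli2 at 2.79, Hhip at 2.78, Cdon at 2.65 and Gli1 at 2.03, and the ranges of neighbours from Gli2 downward overlapped. In WT it continued with Boc at 7.90 TPM, Gli3 at 7.44, Hhip at 4.47, Gli2 at 3.78, Gli1 at 3.58 and Cdon at 3.09. There the ranges of Boc and Gli3 overlapped, as did those of neighbours from Hhip downward. Mean levels spanned 11.6-fold across the members in iKO and 8.69-fold in WT.

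Ratios between members inside a library do not depend on how that library is scaled, and they are given as values with no test. Gli1 stood at 0.688 to 0.832 times Gli2 in iKO and 0.893 to 1.002 times Gli2 in WT, with no overlap. Relative to Sufu, Gli1 was 0.0734 to 0.0958 in iKO and 0.123 to 0.139 in WT, and relative to Smo it was 0.156 to 0.188 in iKO and 0.216 to 0.278 in WT. Both of these ratios were thus lower in every iKO library, as was Gli3 over Sufu, at 0.191 to 0.216 in iKO and 0.249 to 0.291 in WT. The balance of Gli1 to Gli3 overlapped, at 0.385 to 0.499 in iKO and 0.436 to 0.554 in WT. Gli2 over Gli3 also overlapped, at 0.532 to 0.725 in iKO and 0.472 to 0.553 in WT. Ptch1 over Smo was 1.34 to 1.96 in iKO and 1.56 to 1.81 in WT, so the receptor and the transducer kept overlapping proportions.

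**Figure D3:**
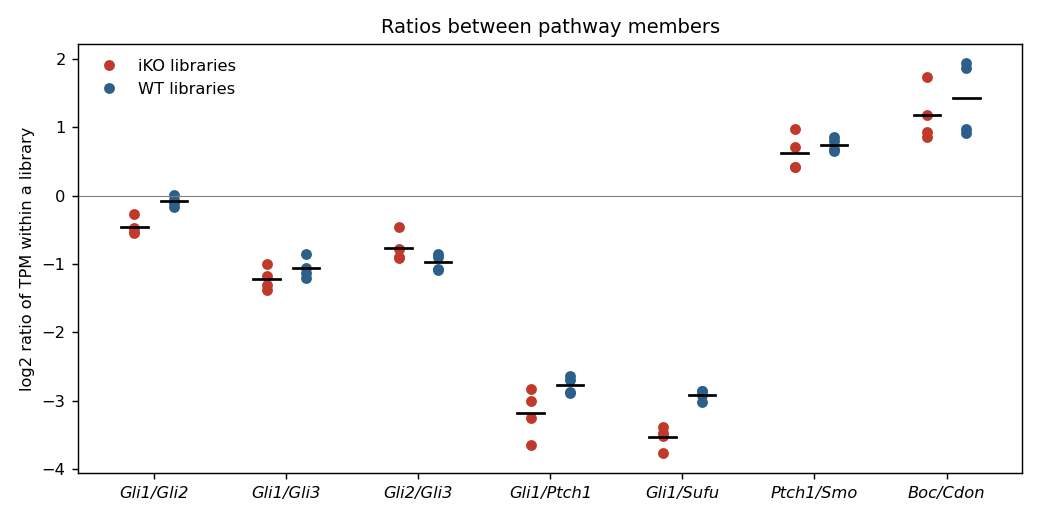
Log2 ratio of TPM between pairs of members within each library, iKO left of WT in each pair, with the group mean as a bar. Gli1/Gli2 and Gli1/Sufu are lower in all 4 iKO libraries than in any WT library; the other 5 ratios overlap.

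Ligand genes were almost silent in the sorted cells. Shh had 0.0853, 0, 0.128 and 0.127 TPM in iKO libraries 1 to 4, against 0.0948, 0.242, 0.0960 and 0.238 TPM in WT libraries 1 to 4 (exact permutation p = 0.229). Ihh stood at 0.265 to 0.476 TPM in iKO, against 0.291 to 0.352 TPM in WT (exact permutation p = 0.143), and Dhh at 0.0734 to 0.196 TPM in iKO, against 0.195 to 0.383 TPM in WT (exact permutation p = 0.0571). None of the 3 reached the filter, and no difference was detectable at these levels. Of all tested genes 31.9% fell, and among 4 tested genes of ligand acylation and release, 1 fell. This was Scube1, which helps release lipid-modified ligand, at 1.46 to 2.68 TPM in iKO, against 2.70 to 3.63 TPM in WT (log2 fold change -0.40, adjusted p = 0.0445), and the call was lost under 11 of 19 other settings, which include trimmed mean factors (adjusted p = 0.0734). Hhat, the ligand acyltransferase gene (1.89 TPM in iKO, 1.91 TPM in WT), Disp1, the ligand exporter gene (2.49 TPM in iKO, 3.18 TPM in WT) and Scube2 (1.01 TPM in iKO, 1.25 TPM in WT) did not pass. The authors' deposited table called Hhat (-0.50, adjusted p = 0.0462), Disp1 (-0.44, adjusted p = 0.00301) and Scube2 (-0.63, adjusted p = 0.0226) lower, and Disp1 also passed by limma with the replicate block (adjusted p = 0.0416). Scube3 was below the filter, at 0.192 to 0.247 TPM in iKO, against 0.472 to 1.54 TPM in WT (exact permutation p = 0.0286, the smallest possible). It was called lower in the authors' deposited table (-1.24, adjusted p = 9.08e-05), as was Scube1 (-0.44, adjusted p = 0.0149).

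Gpc3 and Gas1, which encode ligand-binding surface proteins outside the members, also fell. Gpc3, a glypican that in mouse competes with PTCH1 for ligand, had 12.1, 11.3, 11.9 and 11.3 TPM in iKO libraries 1 to 4, against 21.8, 22.9, 21.8 and 23.7 TPM in WT libraries 1 to 4. The groups stood far apart (log2 fold change -0.90, SE 0.0461, adjusted p = 8.69e-07). Gas1, a co-receptor gene, had 13.1 to 21.1 TPM in iKO, against 21.3 to 34.7 TPM in WT (log2 fold change -0.55, adjusted p = 0.0314). Gas1 did not pass by limma after quantile normalization (adjusted p = 0.05001) or trimmed mean scaling (0.0529), nor without iKO replicate 2 (0.0682) or 3 (0.0548) or WT replicate 1 (0.0767) or 2 (0.0787).

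Of 14 tested GLI target genes outside the members, 9 fell, 2 rose and 3 did not pass, where 31.9% of all tested genes fell and 20.7% rose; the median log2 fold change was -0.28. Mycn, a transcription factor gene of dividing progenitors, averaged 156 ± 1.39 TPM in iKO, against 194 ± 3.17 TPM in WT (SD, n = 4). Rab34, a gene of cilium formation, averaged 56.8 ± 1.86 TPM in iKO, against 89.5 ± 5.65 TPM in WT (SD, n = 4). Olig2, a transcription factor gene of oligodendrocyte lineage and ventral progenitors, averaged 41.6 ± 1.90 TPM in iKO, against 54.0 ± 3.05 TPM in WT, and Sfrp1, which encodes a secreted Wnt inhibitor, 40.6 ± 1.69 TPM in iKO, against 50.6 ± 0.751 TPM in WT (SD, n = 4). These 4 genes had log2 fold changes of -0.32, -0.65, -0.37 and -0.31, and none of their groups overlapped, as for 49.2% of all tested genes. They were named for their small p, so the lack of overlap is no separate result. Ccnd2, a G1 cyclin gene, fell by 0.17 (adjusted p = 1.82e-05), but did not pass after quantile normalization (-0.0150, adjusted p = 0.562).

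Both target genes that passed the filter and rose encode forkhead factors. Foxf2 had 15.7, 19.2, 15.9 and 17.6 TPM in iKO libraries 1 to 4, against 9.84, 9.41, 7.204 and 8.43 TPM in WT libraries 1 to 4 (log2 fold change 0.90, adjusted p = 8.2e-05). Foxf1, named after its value was seen, averaged 1.51 ± 0.224 TPM in iKO, against 0.771 ± 0.0633 TPM in WT (SD, n = 4; log2 fold change 0.50, adjusted p = 0.00259). Foxf1 reached the filter of 1 TPM in 4 libraries only through the iKO group. Its call, and its place in the count of target genes that rose, therefore partly follow from that filter. Nkx6-1, a gene of ventral progenitor identity also named after its value was seen, was below the filter, at 0.267 to 0.576 TPM in iKO, against 0 to 0.146 TPM in WT (exact permutation p = 0.0286, the smallest possible), and the authors' deposited table called it higher (2.29, adjusted p = 0.00493). In the brain, Foxf2 is known as a gene of pericytes and the vessel wall. Over all tested genes, 20.7% rose and 31.9% fell. In these libraries 9 of 10 endothelial markers rose, with a summed level of 900 to 965 TPM in iKO, against 518 to 535 TPM in WT. Of 7 tested pericyte and smooth muscle markers 3 rose and 3 fell, with a summed level of 961 to 1013 TPM in iKO, against 824 to 876 TPM in WT. No marker of either list was at 0 in all libraries, and their part in the rise was not tested.

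Of 20 tested regulators that act on SMO and GLI, 3 rose, 6 fell and 11 did not pass. Of all tested genes 20.7% rose and 31.9% fell, so these counts do not set the list apart, and their median log2 fold change, -0.06, equalled that of all tested genes. Prkaca, the catalytic subunit gene of protein kinase A, which phosphorylates GLI proteins and favours their repressor forms, had 21.5, 21.3, 20.97 and 21.1 TPM in iKO libraries 1 to 4, against 14.6, 13.1, 14.1 and 14.1 TPM in WT libraries 1 to 4. This rise was the clearest in the list (log2 fold change 0.57, SE 0.0431, adjusted p = 8.19e-06; 0.68 in the authors' deposited table). Gsk3b, another GLI kinase gene, averaged 79.2 ± 0.664 TPM in iKO, against 71.2 ± 0.897 TPM in WT (SD, n = 4), a log2 fold change of 0.15 (adjusted p = 0.000634). Csnk1a1, which encodes another, differed by -0.06 (adjusted p = 0.0150), with the opposite sign under trimmed mean factors (0.01) and with the trend on length and GC taken out (0.04).

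Evc, which encodes a ciliary partner of active SMO, had 24.4, 26.5, 26.6 and 26.8 TPM in iKO libraries 1 to 4, against 37.0, 36.2, 37.1 and 33.3 TPM in WT libraries 1 to 4. It fell well outside the spread (log2 fold change -0.45, SE 0.0484, adjusted p = 7.34e-05). Stk36, a kinase gene known in mouse for motile cilia, rose by TPM (18.2 ± 1.99 TPM in iKO, against 13.4 ± 1.45 TPM in WT, SD, n = 4; adjusted p = 0.00526) but not in the authors' deposited table (0.09, adjusted p = 0.375). Mgrn1, a ubiquitin ligase gene, fell by 0.12 (adjusted p = 0.0126), which did not pass with trimmed mean factors (-0.05, adjusted p = 0.186).

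Vertebrate Hedgehog transduction passes through the primary cilium, and genes of intraflagellar transport and of the ciliary base were listed for that reason. Of 45 tested, 9 rose, 15 fell and 21 did not pass, shares close to the 20.7% higher and 31.9% lower of all tested genes; the median log2 fold change was -0.11. Among the falls, Cc2d2a, a transition zone gene, averaged 5.88 ± 0.0709 TPM in iKO, against 10.7 ± 0.580 TPM in WT (SD, n = 4; log2 fold change -0.76, adjusted p = 5.11e-06). Dync2h1, the heavy chain gene of the retrograde motor, averaged 31.6 ± 0.488 TPM in iKO, against 43.5 ± 1.88 TPM in WT (SD, n = 4; log2 fold change -0.45). Kif3a, a subunit gene of the anterograde motor, averaged 198 ± 4.04 TPM in iKO, against 238 ± 5.20 TPM in WT (SD, n = 4; log2 fold change -0.26). Dync2li1, a light intermediate chain gene of the retrograde motor, averaged 41.2 TPM in iKO, against 37.7 TPM in WT, and did not pass (log2 fold change 0.12, adjusted p = 0.101). It was called higher with quantile normalization, with trimmed mean factors and in the authors' deposited table (0.22, adjusted p = 0.00261 in that table), and is named here after its values were seen.

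Among the rises, Fuz, a planar polarity effector gene needed for ciliogenesis, averaged 45.3 ± 1.51 TPM in iKO, against 26.9 ± 2.29 TPM in WT (SD, n = 4; log2 fold change 0.73, adjusted p = 1.48e-05). Arl3, a small GTPase gene of ciliary cargo release, averaged 281 ± 12.4 TPM in iKO, against 209 ± 6.04 TPM in WT, and Ift27, a transport train subunit gene, averaged 138 ± 3.9997 TPM in iKO, against 103 ± 4.35 TPM in WT (SD, n = 4). Their log2 fold changes were 0.43 and 0.42. Except with the sex score as covariate, each of the 6 cilium genes given as falls or rises kept its direction and call under the other settings tried.

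**Figure D4:**
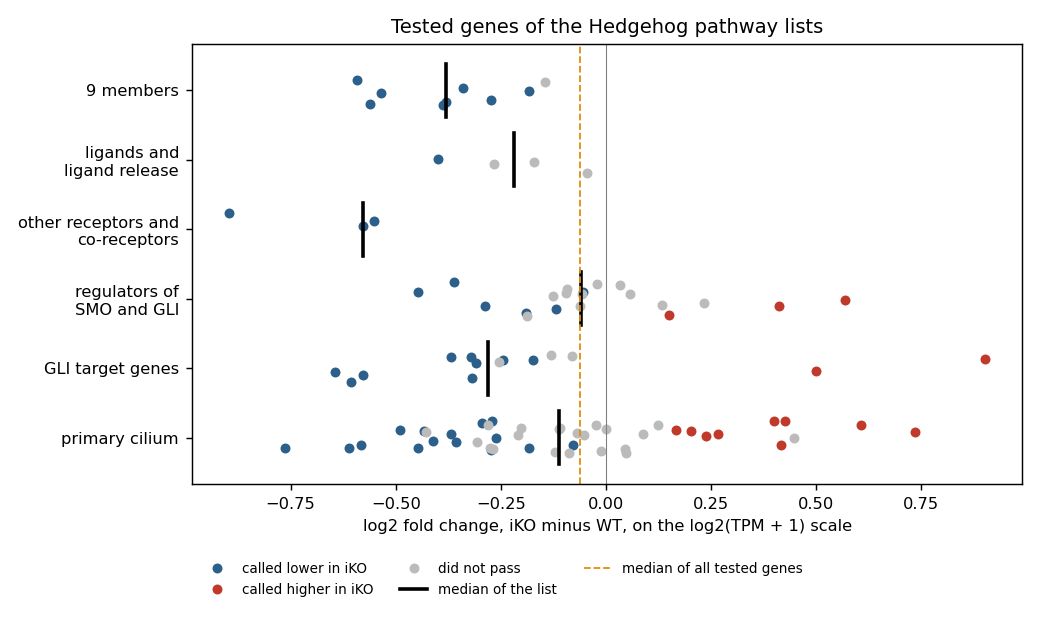
Log2 fold change (iKO minus WT, log2(TPM + 1) scale) of each tested gene in 6 pathway lists, coloured by call, with the median of the list (black bar) and of all tested genes (dashed line, -0.06). The members, the other receptors and the GLI target genes lie mostly left of the dashed line, while regulators of SMO and GLI and cilium genes lie on both sides.

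Counts of cell type markers are to be read against the 31.9% of all tested genes that fell and the 20.7% that rose. Astrocyte markers, of which astrocytes and stem cells of this age share several, fell in 8 of 10 cases and rose in 1, with a summed level of 4352 to 4541 TPM in iKO, against 6422 to 6622 TPM in WT. Agt fell most of these, at 62.8 ± 2.69 TPM in iKO, against 726 ± 27.2 TPM in WT (SD, n = 4). Stem cell and radial glia markers were split, with 6 of 13 tested lower and 3 higher: Slc1a3, a glutamate transporter gene, averaged 1241 ± 27.0 TPM in iKO, against 2039 ± 33.3 TPM in WT, while Fabp7, a fatty acid binding protein gene, averaged 925 ± 12.4 TPM in iKO, against 664 ± 18.3 TPM in WT (SD, n = 4). Oligodendrocyte lineage markers had 3 of 7 tested lower and 3 higher, with a summed level of 1742 to 1821 TPM in iKO, against 1720 to 1738 TPM in WT. Dividing progenitor markers had 2 of 8 higher and 1 lower (1130 to 1162 TPM in iKO, 943 to 980.0 TPM in WT), and neuroblast markers 6 of 10 higher and 4 lower (1535 to 1584 TPM in iKO, 1610 to 1669 TPM in WT). Microglia markers fell in 6 of 8 cases (484 to 495 TPM in iKO, 606 to 652 TPM in WT), and all 5 tested red blood cell markers rose (720.1 to 840.1 TPM in iKO, 69.8 to 81.0 TPM in WT). No marker in these lists was at 0 in all libraries. The part of each cell type in the lower Hedgehog transcripts was not tested.

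Across the 8 libraries, the genes most like Gli1 by Pearson correlation of log2(TPM + 1) were Msn (r = 0.996), Fbxl20 (0.994) and 1700018L02Rik (0.994). Those most like Ptch1 were Gm4017 (0.970), Efcab11 (0.969) and Gm13595 (0.961). These points share libraries and a group difference, so the values describe likeness and carry no p. No other pathway member was among them.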

How the data were processed

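RNA of sorted NSPCs was amplified by Smart-Seq2, sheared by ultrasound and sequenced as paired ends, per the labels' protocols. The authors deposited TPM values for 55385 genes in 8 libraries; each column has the same sum, 1000000. All value columns matched a sample by title. The authors also deposited a comparison of iKO with WT, whose columns, per the file headers, are those of DESeq2: a mean normalized signal, a log2 fold change, its SE, a test score, a p-value and an adjusted p-value. No source used here names the aligner, quantifier or build.

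TPM carries no counts, so log2(TPM + 1) values were tested with limma (version 3.58.1, R 4.3.3), with trend and robust moderation, over genes with at least 1 TPM in at least 4 libraries, called at an adjusted p under 0.05 (two-sided, Benjamini-Hochberg over all tested genes). Genes below the filter got an exact two-sided permutation test over 70 assignments, with a smallest p of 0.0286. The procedure was tested on simulated data. Lists are described by counts and medians, with no set test. The members, lists and tests were chosen with earlier results of these data known. Named were Ash2l, all members, the ligand list, up to 6 genes per pathway list and 4 per marker list with the smallest p; not all are printed, and some listed items are not reported here. Transcript lengths came from GENCODE M21, which held 98.4% of the gene IDs with the same version. Alternatives were the replicate block, each library left out, other pseudocounts (0.1 and 5), filters, scalings, weights and moderation, a sex score (Y-linked genes minus Xist), the deposited comparison and, added after seeing the data, subtraction of a loess trend (span 0.3) on transcript length and GC share. Figures were drawn with matplotlib 3.10.9.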

Additional observations from a re-analysis of the deposited data

Results flagged for a closer look

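In 6 of 78 groups of 4 libraries, over the 39 pathway genes named, 1 library stood apart from the other 3 by Dixon's criterion, which chance alone gives in about 1 of 20 groups. Sufu was 25.1 TPM in iKO replicate 1 against 22.9 to 23.1 TPM in the other iKO libraries, whose mean was 23.0 TPM. Evc was 24.4 TPM in iKO replicate 1 against 26.5 to 26.8 TPM in the others. Fuz was 47.6 TPM in iKO replicate 4 against 44.4 to 44.7 TPM in the others. Olig2 was 58.6 TPM in WT replicate 1 against 52.3 to 52.6 TPM in the other WT libraries, Hhat was 1.53 TPM in WT replicate 1 against 1.999 to 2.08 TPM, and Ihh was 0.352 TPM in WT replicate 4 against 0.291 to 0.297 TPM. For Evc, Fuz and Olig2 the groups did not overlap with the library included.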

How the results depend on the processing

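Outside the sex score, all 9 members stayed below 0 under every alternative in which they were tested, and 5 to 8 were called (5 of 5 with a mean TPM of at least 5). Smo, Gli1, Gli3, Hhip and Boc kept their call under each of these. Sufu lost it with the replicate block (-0.18, adjusted p = 0.0586), trimmed mean factors (-0.11), quantile normalization (-0.12), the length and GC trend removed (-0.0881) and the deposited comparison (-0.0826). Gli2 lost it with quantile normalization (-0.21) and Ptch1 with the length and GC trend removed (-0.25). Cdon gained a call in the deposited comparison (-0.36). With one library left out, Ptch1 ranged from -0.49 to -0.31, Gli1 from -0.62 to -0.55, Sufu from -0.22 to -0.15 and Cdon from -0.27 to -0.01. Genes called over the whole table ranged from 7942 to 8216 without one library, and the share of calls that were higher was 39.3% as reported, 51.1% with trimmed mean factors, 49.7% with quantile normalization and 53.4% with the trend removed.

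With the sex score as covariate, which separates the groups, 423 genes were called (195 higher, 228 lower), Ash2l lost its call (-1.07, adjusted p = 0.142) and 0 of 9 members were called. The values were then -0.17 for Smo, -0.54 for Gli1, -0.73 for Gli2, -0.35 for Gli3, -1.10 for Hhip and -0.71 for Boc, while Ptch1 (0.41, adjusted p = 0.643), Sufu (0.0470, 0.932) and Cdon (0.79, 0.664) had the opposite sign. That setting called 1 of the GLI target genes and 0 in the other pathway lists.

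Called genes of ligand release were 0 to 1 with one library left out, and 0 with trimmed mean factors, quantile normalization or the trend removed. The filter on a mean TPM of at least 5 left no gene of that list to test. In the deposited comparison 5 were called, and it gave a p-value for all 8 genes of the list, of which limma tested 4. That comparison called 33.9% of all its genes with a p-value. Called regulators of SMO and GLI were 5 with trimmed mean factors and with the trend removed, against 9. The counts for ligand release thus rest on different sets of tested genes, and the cause of the other changes was not tested. Replicate numbers did not pair libraries (correlations of deviations -0.0445 to 0.000694); with the replicate block 8097 genes were called and, among the members, only the call on Sufu changed. The unknown depth limits what the ligand genes, all below the filter, can show.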
